A study of Mus musculus with 4 samples.

Results

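The genes described here encode 7 secreted factors that act on blood vessels: Vegfa, Vegfb, Vegfc, Angpt1, Angptl4, Adm and Edn1. Their phospho-CREB regions were found by position alone. Peaks of the 4 deposited lists were merged where they shared at least 1 bp, and a region was taken when its centre lay inside one of the genes or within 100 kb of one of its transcription start sites (TSS). This gave 40 of 28335 regions, at 5 of the 7 genes. The libraries came from MC3T3-E1, an established mouse pre-osteoblast line grown in serum-containing medium, and measured where CREB phosphorylated at serine 133 lay on chromatin. One treatment was 1 h of 100 nM forskolin, an activator of adenylyl cyclase, and the other was 1 h of DMSO vehicle, with 2 libraries each. All rest on a single line, so the data describe these cultures and not bone tissue. A forskolin-only region is one with a peak in each forskolin list and in no vehicle list, a vehicle-only region is the opposite, and an all-library region has a peak in each of the 4 lists.

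Vessel growth in bone is coupled to bone formation, and osteoblast-lineage cells are a source of several of these factors. VEGF-A drives endothelial growth through the receptor Kdr, VEGF-B binds Flt1, and VEGF-C acts mainly on lymphatic endothelium through Flt4. Angiopoietin 1 activates the receptor Tek and steadies vessels, and angiopoietin-like 4 inhibits lipoprotein lipase. Adrenomedullin, the product of Adm, is a vasodilator peptide, and endothelin 1, the product of Edn1, is a vasoconstrictor. Cyclic AMP activates protein kinase A, which phosphorylates CREB, and CREB binds the cAMP response element (CRE) TGACGTCA or its core TGACG.

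Sequences of 7 regions that the results below turn on are shown first, from the plus strand of NCBIM37 (mm9), 5′ to 3′. Each covers 100 bp to either side of the region's centre, except that of Edn1, which stops where annotated UTR begins. Capitals mark matches on either strand to the CRE core, the RUNX site TGTGGT, the CCAAT box or the hypoxia-response core ACGTG. The 3 forskolin-only regions come first, then 2 all-library regions whose forskolin percentiles both lay above both vehicle percentiles, then the vehicle-only region, and last the all-library region next to the 3′ end of Adm, which did not differ in this way between treatments.
Edn1 forskolin-only, chr13:42402137-42402245: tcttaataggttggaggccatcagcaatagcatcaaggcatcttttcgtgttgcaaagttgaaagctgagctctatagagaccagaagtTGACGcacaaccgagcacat
Angptl4 forskolin-only, chr17:33916287-33916487: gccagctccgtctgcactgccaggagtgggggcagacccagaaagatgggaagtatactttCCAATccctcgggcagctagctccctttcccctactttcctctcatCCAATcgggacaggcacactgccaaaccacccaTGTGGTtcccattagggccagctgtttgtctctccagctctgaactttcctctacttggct
Vegfa forskolin-only, chr17:46241621-46241821: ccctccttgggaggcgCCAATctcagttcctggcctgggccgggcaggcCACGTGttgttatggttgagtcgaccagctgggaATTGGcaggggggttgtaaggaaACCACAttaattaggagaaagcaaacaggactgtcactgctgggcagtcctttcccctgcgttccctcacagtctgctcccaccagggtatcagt
Vegfa all-library, chr17:46210854-46211054: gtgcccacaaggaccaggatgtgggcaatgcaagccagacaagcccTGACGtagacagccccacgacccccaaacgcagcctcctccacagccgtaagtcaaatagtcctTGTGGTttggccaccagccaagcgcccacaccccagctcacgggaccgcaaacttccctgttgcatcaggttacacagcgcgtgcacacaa
Angptl4 all-library, chr17:33920454-33920654: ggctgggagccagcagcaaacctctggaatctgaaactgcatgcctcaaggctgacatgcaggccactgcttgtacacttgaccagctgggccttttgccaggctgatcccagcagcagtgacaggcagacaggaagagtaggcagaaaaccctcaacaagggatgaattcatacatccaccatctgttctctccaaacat
Vegfa vehicle-only, chr17:46081965-46082165: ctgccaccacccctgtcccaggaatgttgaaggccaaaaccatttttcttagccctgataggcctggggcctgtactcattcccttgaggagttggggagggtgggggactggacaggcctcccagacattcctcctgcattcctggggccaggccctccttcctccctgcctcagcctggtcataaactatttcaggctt
Adm all-library, chr7:117773879-117774079: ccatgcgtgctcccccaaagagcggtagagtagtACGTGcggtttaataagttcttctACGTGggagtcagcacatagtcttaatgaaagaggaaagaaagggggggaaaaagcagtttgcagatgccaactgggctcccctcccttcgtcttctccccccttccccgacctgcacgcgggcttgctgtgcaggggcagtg

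The full CRE was absent from these windows and from those of all 40 regions, whereas 3.53% of all 28335 regions held it within 100 bp of the centre. The CRE core stood in the Edn1 forskolin-only region, 9 bp before the centre, and in the all-library region of Vegfa. In all it was found in 11 of the 40 regions (27.5%), against 29.1% of all regions. The forskolin-only regions of Angptl4 and Vegfa held no CRE core. Both had CCAAT boxes and a RUNX site. The Vegfa one also had CACGTG, a palindrome, so its ACGTG matches on the 2 strands are the same site. The Adm region had ACGTG in 2 places, and the hypoxia-response core occurred in 10 of the 40 regions (25.0%), against 18.9% of all. The AP-1 site TGAGTCA occurred in 1 of the 40 (2.5%), against 13.8% of all regions. RUNX occurred in 6 (15% against 24.2%) and CCAAT in 12 (30.0% against 26.0%). All-library regions, 47.5% of the 40 against 31.5% of all regions, held AP-1 in 6.16%, RUNX in 15.9%, ACGTG in 24.4% and CCAAT in 31.7%. Forskolin-only regions held these in 21.8%, 33.4%, 19.1% and 23.2%. The CRE core was in 39.3% of all-library and 38.6% of forskolin-only regions, and the full CRE in 6.64% and 3.59%. The comparison with all regions was not matched for class. A match describes the letters and is no evidence of binding by that factor.

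The 4 lists differ in length, with 14686 and 10180 peaks for vehicle replicates 1 and 2 and 25566 and 19371 for forskolin replicates 1 and 2, and they hold no read totals. A score percentile is a peak's rank by the deposited score within its own list, from 0 to 100. Osteoblast markers were near regions, as all 8 (among them Runx2, Sp7 and Alpl) had an all-library region in the window, against 67.2% of all protein-coding genes. Of 6 endothelial markers 3 did, and 2 (Tek and Kdr) had no region, as was the case for 20.2% of all genes. A region near a gene does not measure that gene's expression, so this is a weak check of the label. The smallest p of a two-sided exact permutation test on such a design is 0.333, so no difference below is called significant.

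Of the regions at the 7 genes, a smaller share was forskolin-only than among all regions, while the share of genes with such a region in the window was close to that of all genes. Forskolin-only regions made up 3 of the 40 (7.5%), against 18.3% of all regions. The 40 also lay closer to promoters, with 21 (52.5%) within 1 kb of a protein-coding TSS, against 35.8% of all regions. The Vegfb window, with the TSS of 16 other protein-coding genes, gave 12 of the 40 and 0 forskolin-only regions. The share was not compared at matched positions. Vegfa, Angptl4 and Edn1 had 1 each, so 3 of 7 genes had one in the window, against 40.0% of the 22367 annotated protein-coding genes. Within 10 kb of a TSS or inside the gene, 2 of 7 had one (Angptl4 and Edn1), against 12.3%. There was 1 vehicle-only region, at Vegfa, where 0.441% of all regions and 2.09% of genes had that call. All-library regions numbered 19 (47.5% against 31.5%), at 4 of the 7 genes against 67.2% of all genes. The remaining 17 regions had other patterns, 7 of them in forskolin replicate 1 alone, the longest list (17.5% of the 40 against 21.8% of all regions). By library, 26 of the 40 regions were called in vehicle replicate 1 and 22 in vehicle replicate 2, and 35 in forskolin replicate 1 and 27 in forskolin replicate 2.

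The count of forskolin-only regions depended on the libraries and on list length. It was 10 without forskolin replicate 2, and 5 without forskolin replicate 1 or without vehicle replicate 1. With the top 50% of each list, 0 of the 3 were still forskolin-only, and likewise with lists cut to equal length. In forskolin replicate 1 the 3 stood mid-list or below, at percentiles 50.7 (Edn1), 38.3 (Angptl4) and 37.2 (Vegfa), and in replicate 2 they were low, at 17.1, 1.5 and 5.3. The median of the lower of the 2 values over all forskolin-only regions was 27.2.

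**Figure D1:**
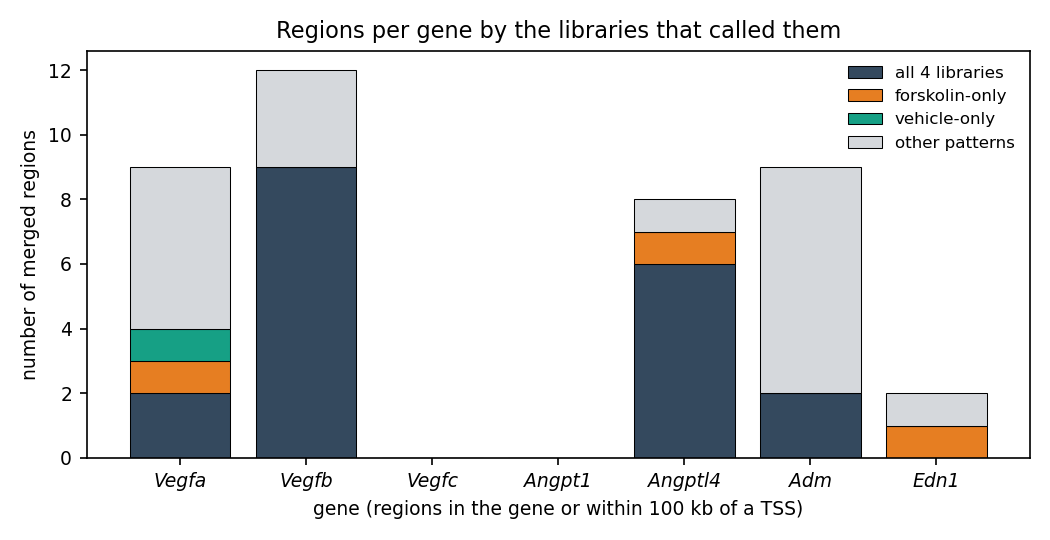
Number of merged phospho-CREB regions (vertical axis) inside each gene or within 100 kb of its TSS, stacked by the libraries that called them. Vegfb has the most regions, 12, of which 9 were called in all 4 libraries, while Vegfc and Angpt1 have none.

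Edn1 had few regions, 2 in all, and neither was called under vehicle. The gene (ENSMUSG00000021367.7, chromosome 13, 42396639 to 42403358, plus strand) has no other protein-coding TSS in its window, and 28.6% of protein-coding genes had fewer regions. Its forskolin-only region (42402041 to 42402433) lay 5.6 kb downstream of the TSS, with its centre in coding sequence of an exon. The deposited scores there were 15 and 8.9 in forskolin replicates 1 and 2, at percentiles 50.7 and 17.1, so the call ranked mid-list in one library and low in the other. The second region, 32.3 kb downstream between genes, was called in forskolin replicate 1 alone at percentile 33.6. No region of any library lay within 1 kb of the Edn1 TSS.

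Angptl4 had a forskolin-only region and an all-library region close to its own TSS. The gene (ENSMUSG00000002289.9, chromosome 17, 33910695 to 33918520, minus strand) had 8 regions. The forskolin-only one (33916200 to 33916575) lay in an intron, 299 bp upstream of an internal TSS (distance -299 bp) and 2.1 kb inside the gene from its outermost TSS. Its scores were 11.9 and 5.5, at percentiles 38.3 and 1.5, which places the second near the bottom of its list.
The all-library region (33920389 to 33920720) lay 2.0 kb upstream of the outermost TSS, outside protein-coding genes but within 4931413I07Rik, annotated as a processed transcript. Its percentiles were 37.8 and 18.4 in the vehicle libraries and 53.0 and 70.4 in the forskolin libraries. Both forskolin values lay above both vehicle values, by 33.6 percentile points in the mean. This order was not kept when ranks were taken among the 8930 all-library regions only, where the values were 17.3 and 15.1 against 14.4 and 49.6 and the treatments overlapped. When only the top 50% of each list was used, this region, and not the intronic one, was the forskolin-only region of Angptl4.
The other all-library regions of the Angptl4 window lay at the promoters of Hnrnpm, Rab11b, Ndufa7 and Cd320, each within 1 kb of a TSS, and in an exon of Kank3. At Hnrnpm the peak centres spread over 403 bp, more than the width of a peak. The outermost peaks there did not overlap each other, and its ranks compare peaks at different positions. The Rab11b region, at a gene that encodes a small GTPase of vesicle recycling, ranked high in every library. It stood at 97.0 and 95.7 under vehicle and 96.3 and 95.4 under forskolin. An eighth region, near March2, was called in both forskolin libraries and vehicle replicate 2, at percentiles between 3.5 and 27.2.

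Vegfa had a region far upstream that ranked higher in both forskolin libraries, and no reproducible call at its promoter. The gene (ENSMUSG00000023951.9, chromosome 17, 46153942 to 46169326, minus strand) had 9 regions, with 8 annotated TSS and 1 other protein-coding gene, Mrps18a, starting in the window. The all-library region 41.6 kb upstream (46210788 to 46211120, intergenic) had deposited scores of 14.4 and 11.9 under vehicle and 67.5 and 64.0 under forskolin, on a scale that is not stated. Its percentiles were 65.2 and 59.3 against 93.7 and 95.2. Both forskolin libraries thus placed it among their top-ranked peaks, and the treatments did not overlap.
Ranked among all-library regions only, the same site stood at 46.5 and 55.2 under vehicle and 84.2 and 90.2 under forskolin. The difference of 36.4 points was above that of 94.7% of the 8930 all-library regions. Of those lying more than 1 kb from any protein-coding TSS, 39.1% had both forskolin ranks above both vehicle ranks, so the direction is common among distal regions. The nearest protein-coding TSS to this site is that of Mrps18a, a mitochondrial ribosomal protein gene, at -36981 bp, so position does not assign the region to Vegfa.

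At the Vegfa promoter, 2 regions were called, each in a single library. One, 179 bp downstream of an internal TSS in an intron (46167976 to 46168276), was in vehicle replicate 1 at percentile 75.4. The other, at -205 bp from an internal TSS in annotated UTR (46168818 to 46169120), was in forskolin replicate 2 at 74.2. Both ranked in the upper part of their list and neither was repeated in the second library of its treatment.
The forskolin-only region of Vegfa lay 72.4 kb upstream (46241514 to 46241929, intergenic) at percentiles 37.2 and 5.3, and was nearer to Mrps18a, whose TSS is 6214 bp away. The vehicle-only region lay downstream of the gene (46081855 to 46082276, intergenic), at 37.8 and 21.2. It was 76.3 kb from the nearest TSS and no forskolin library had a peak there. The remaining all-library region, at the Mrps18a promoter, had percentiles of 62.5 and 39.0 under vehicle and 58.4 and 22.2 under forskolin. A further 3 regions were found in 1 forskolin library each, at percentiles between 5.0 and 9.7.

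Adm had 9 regions, and most were called in replicate 1 libraries. The gene (ENSMUSG00000030790.7, chromosome 7, 117771175 to 117773331, plus strand) has a single annotated TSS, and no region lay within 1 kb of it. Forskolin replicate 1 called all 9, vehicle replicate 1 called 5, and vehicle replicate 2 and forskolin replicate 2 called 2 each. The 2 common to every library were weak. That 2.8 kb downstream of the TSS, past the 3′ end of the gene (117773744 to 117774215, intergenic), had percentiles of 29.0 and 21.2 under vehicle and 23.4 and 22.2 under forskolin. The other, at the promoter of Sbf2 and 13.5 kb upstream of Adm, had 29.0 and 8.7 against 21.8 and 17.1. In both, the treatments overlapped on this scale. Ranked among all-library regions only, the first stood at 11.3 and 17.6 against 1.3 and 7.6 and the second at 11.3 and 7.1 against 1.1 and 5.5, lower in both forskolin libraries.
A region 2.6 kb upstream of Adm (117768409 to 117768727, intergenic) was called in both replicates 1, at percentile 2.4 under vehicle and 13.2 under forskolin. Including it, 3 Adm regions had this pattern, which 5.05% of all regions shared. Without forskolin replicate 2, 4 further regions of Adm would count as forskolin-only, at 8.1 kb upstream and 23.8, 79.2 and 80.8 kb downstream. That library's list is shorter than that of forskolin replicate 1, and whether this bears on the missing calls was not tested.

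Vegfb had the most regions, 12, in a window dense with other genes. The gene (ENSMUSG00000024962.7, chromosome 19, 7056963 to 7062141, minus strand) shares the window with the TSS of 16 other protein-coding genes, and 92.5% of genes had fewer regions. Its own start was weakly marked. The region there (7061315 to 7061866), 40 bp downstream of an internal TSS in an exon, was called in vehicle replicate 1 and both forskolin libraries, at percentiles of 21.9, 0.4 and 3.0. Its peak centres lay up to 245 bp apart, so the calls were not at one position, and its centre was 0.6 kb downstream of the outermost TSS. This region was the only one of the 12 whose nearest protein-coding TSS was that of Vegfb.
Of the 9 all-library regions of the Vegfb window, 8 lay within 1 kb of the TSS of another gene. The highest-ranked, at -107 bp from Fkbp2, which encodes an FK506-binding protein of the endoplasmic reticulum, had percentiles of 97.4 and 97.7 under vehicle and 98.5 and 98.5 under forskolin. Those at Trmt112 and Stip1, a co-chaperone gene, had percentiles between 90.0 and 95.9 in all 4 lists. The one at Esrra, which encodes an orphan nuclear receptor, had 84.3 and 81.6 against 82.3 and 85.6. The all-library region nearest to Vegfb on its upstream side belonged to the promoter of Dnajc4, at 67.3 and 53.7 against 72.0 and 44.1. Those percentiles overlapped between treatments, but ranked among all-library regions only the site was lower in both forskolin libraries, at 49.5 and 49.2 against 40.4 and 20.5.

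Vegfc and Angpt1 had no region in any library. Vegfc (ENSMUSG00000031520.4, chromosome 8, 55162886 to 55271808, plus strand) spans 109 kb and Angpt1 (ENSMUSG00000022309.8, chromosome 15, 42256273 to 42508523, minus strand) 252 kb, and the windows searched were 209 and 352 kb. Neither window holds the TSS of another protein-coding gene. Having no region in the window was the case for 20.2% of protein-coding genes. A lack of calls shows that no peak passed the authors' threshold there, not that CREB was absent.

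**Figure D2:**
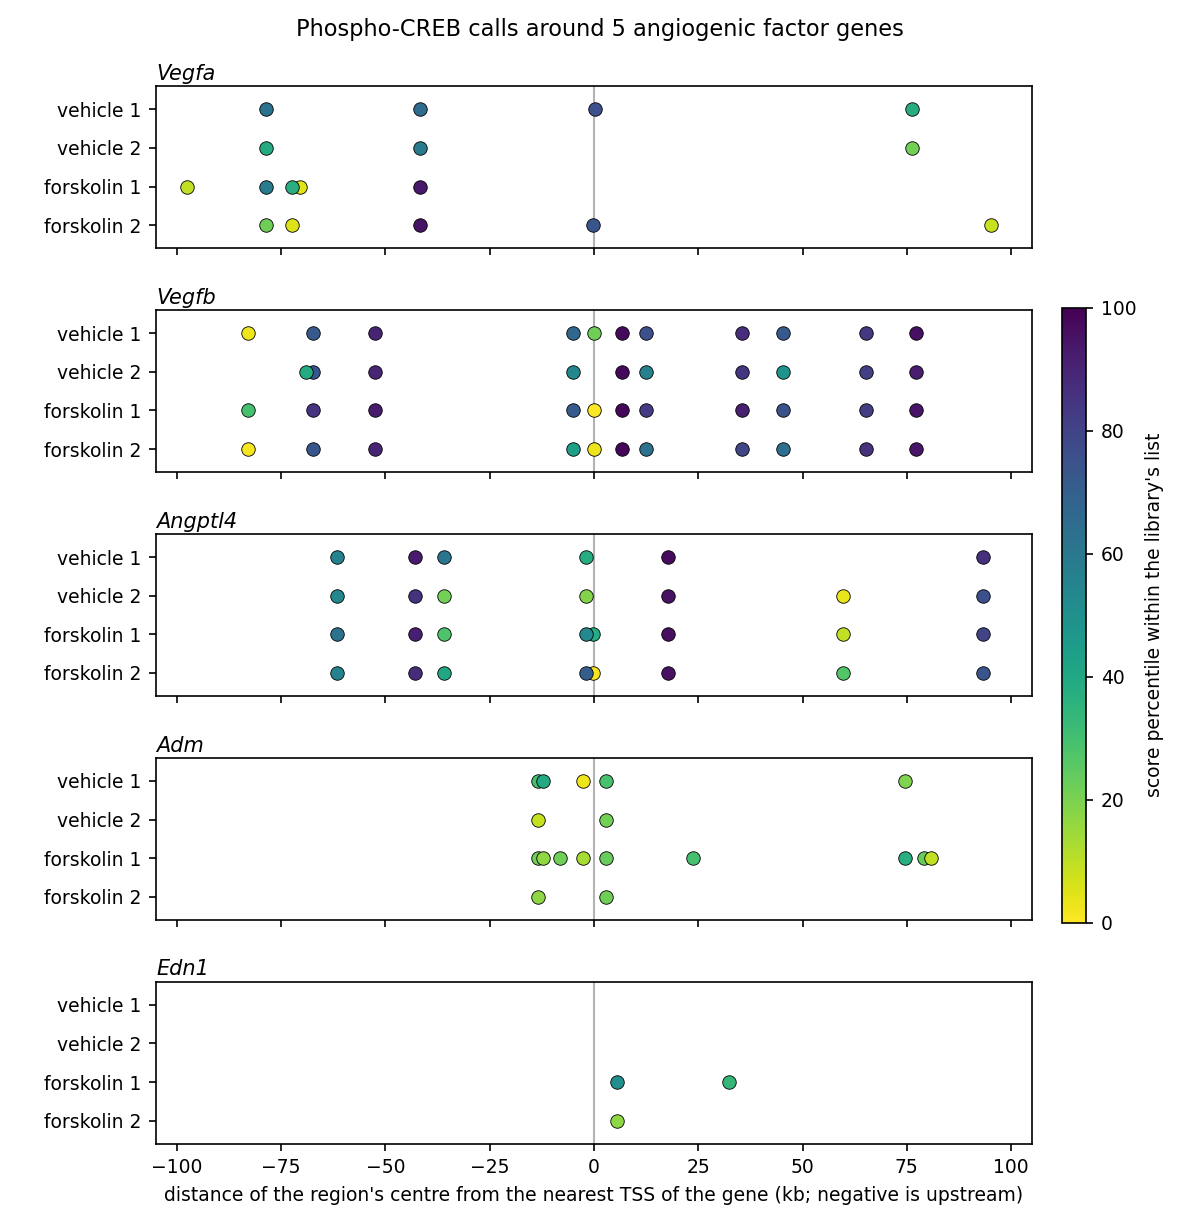
Calls around the 5 genes that had any, by distance of the region's centre from the nearest TSS of the gene (horizontal axis, kb, negative is upstream) and by library (rows); colour gives the score percentile within that library's list. The region 41.6 kb upstream of Vegfa is darker in both forskolin rows, most Adm calls stand in the row of forskolin replicate 1, and Edn1 has no call in the vehicle rows.

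No member had an all-library region within 1 kb of its own TSS, a feature of 30.3% of protein-coding genes. Of the 40 regions, 12 had a member's TSS as their nearest, and of the 19 all-library regions 14 (73.7%) lay within 1 kb of another gene's TSS. That share is near the 67.0% of all-library regions that lay within 1 kb of any protein-coding TSS. Over regions of every class, 52.5% of the 40 lay that close to a protein-coding TSS, against 35.8% of all regions.
Among the 19, 3 had both forskolin percentiles above both vehicle percentiles (Vegfa at 41.6 kb upstream, Angptl4 at 2.0 kb upstream and the Fkbp2 promoter in the Vegfb window), against 44.6% of all-library regions. The mean difference over the 19 was 3.65 percentile points, less than the SD of 6.08 between libraries of a treatment, and it was -1.87 without vehicle replicate 2.
Percentiles within lists of unequal length are ranks against different sets of peaks. Ranked among all-library regions only, 1 of the 19 lay higher in both forskolin libraries (the Vegfa region 41.6 kb upstream), against 18.4% of all such regions, and 13 lay lower in both, against 31.3%. Among the 14 at other genes' promoters, 11 were lower in both, where 37.6% of all-library regions within 1 kb of a TSS were, and 0 higher, where 8.16% were. The median rank difference was -7.32 points over the 19 and -2.32 over all 8930. Neighbouring promoters of one window are not independent, and no test was made.

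**Figure D3:**
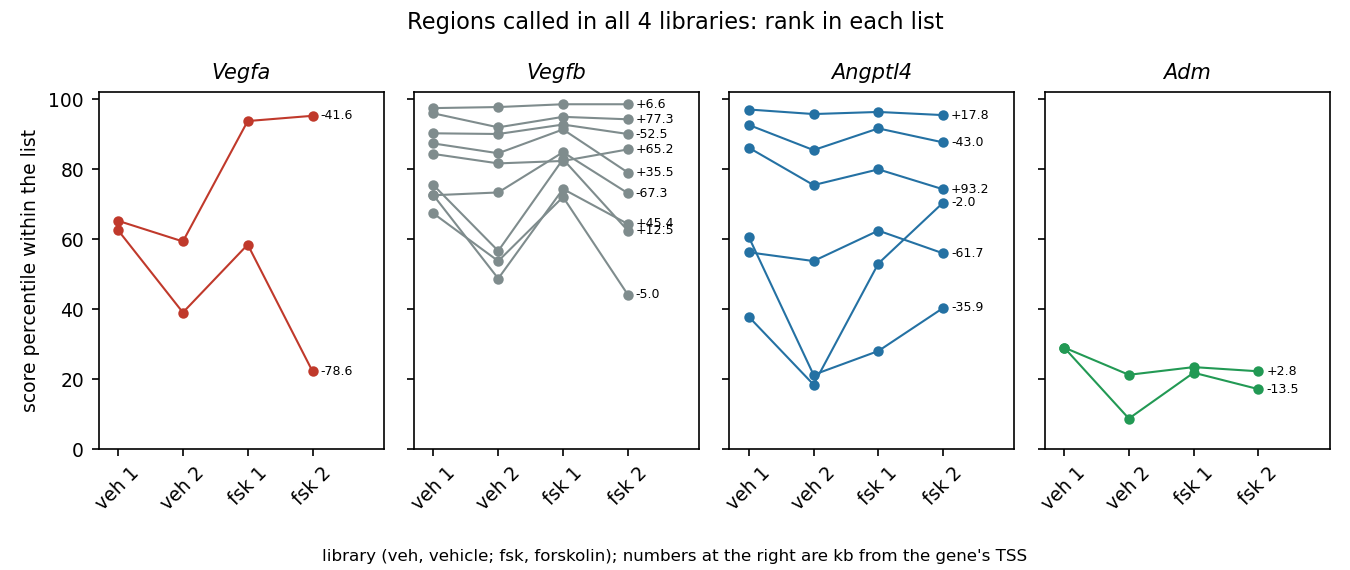
Score percentile within each list (vertical axis) of the 19 regions called in all 4 libraries, joined by lines across the libraries (horizontal axis), with the distance from the gene's TSS in kb at the right. The Vegfa region at 41.6 kb upstream goes from 65.2 and 59.3 under vehicle to 93.7 and 95.2 under forskolin, while the other Vegfa region and most of those of Vegfb, Angptl4 and Adm overlap between treatments on this scale.

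**Figure D4:**
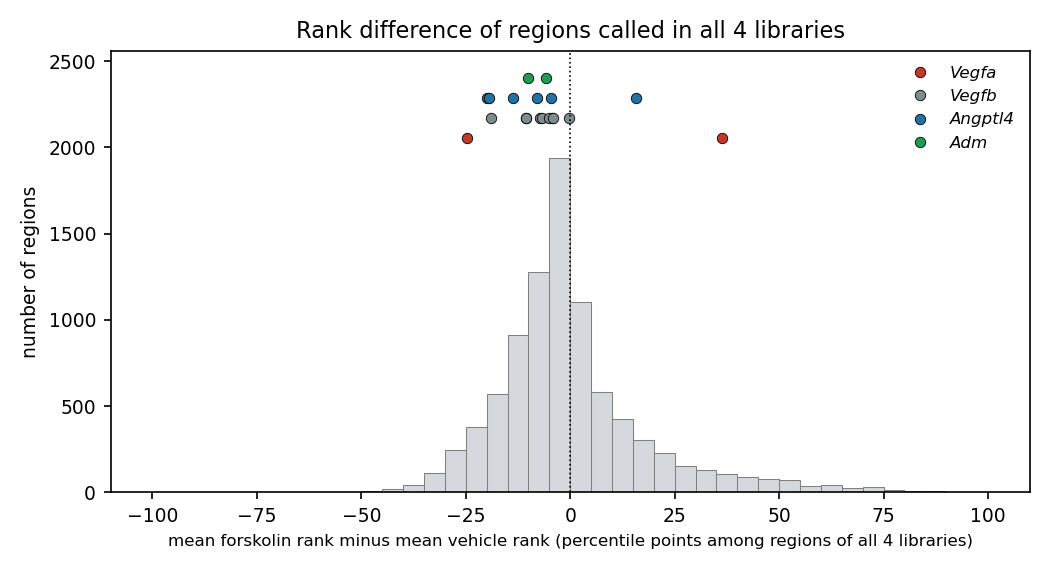
Histogram of the mean forskolin rank minus the mean vehicle rank (horizontal axis, percentile points) over the 8930 regions called in all 4 libraries, ranked among themselves, with the 19 regions of the angiogenic factor genes as points above it. The Vegfa region at 36.4 lies far to the right, the Angptl4 region upstream of the gene at 15.8, and the other 17 lie below 0.

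The annotated promoters of the members were also searched, as RefSeq gives them on GRCm38.p6, from 250 bp before to 50 bp after each start. The table held 6 promoters of 5 members, and Angpt1 and Angptl4 had no entry. The full CRE occurred in 0 of the 6, against 1.79% of all 32851 promoters. The CRE core occurred in 1, of Vegfa, against 20.8%. The hypoxia-response core occurred in 1 of the 2 Vegfa promoters and in that of Edn1, against 19.6% of all.

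Among the other genes of these pathways, forskolin-only regions lay inside or near several receptors, enzymes and inhibitors. Over 4 lists of 35 genes, 21 (60.0%) had a forskolin-only region in the window, against 40.0% of all genes, and 11 (31.4%) had one within 10 kb or in the gene, against 12.3%. An all-library region was present for 23 (65.7% against 67.2%) and no region for 4 (11.4% against 20.2%). A vehicle-only region was present for 3 (8.57% against 2.09%). Ece1 and Hif1a, described below, were among those 3, and each also had an all-library region. Of 11 further VEGF and angiopoietin ligands and receptors, 6 had a forskolin-only region, of 11 adrenomedullin and endothelin genes 5, of 7 hypoxia factors 4, and of 6 angiogenesis inhibitors 6. Longer genes have longer windows, and the lists were not matched for this. They were also written with earlier results of these data known, so these shares are a description and no independent support.
Receptors and converting enzymes were among those with a region inside or near the gene. Flt1, a receptor for VEGF-A and VEGF-B, had 1 in an intron (chromosome 5, 148519079 to 148519397) at percentiles 26.5 and 22.2 in forskolin replicates 1 and 2. The co-receptor genes Nrp1 and Nrp2 had intronic regions at 57.8 and 12.4, and at 18.5 and 36.4 and 48.1 and 8.5. Ece1, the enzyme that cleaves the endothelin precursor, had 4, of which that at -2184 bp (chromosome 4, 137415794 to 137416143, intergenic) ranked highest, at 82.3 and 82.9, and held a CRE core.
Figf, which encodes VEGF-D, had a region at -142 bp from its TSS (chromosome X, 160810984 to 160811353) at 36.1 and 31.9 with an AP-1 site, and a low-ranked one in an intron (160820031 to 160820388) at 5.0 and 8.5. Thbs1, encoding the angiogenesis inhibitor thrombospondin 1, had one at -1091 bp (chromosome 2, 117936363 to 117936679, intergenic) with a CRE core and percentiles of 86.1 and 78.3. Hif1a, a subunit of the hypoxia-inducible factor, had one at -225 bp from a TSS at 49.0 and 27.2. Egln2 and Egln3, oxygen-sensing hydroxylases that mark that factor for degradation, had theirs at -264 bp (15 and 22.2) and at -19 bp (15 and 12.4), with 2 more in introns of Egln3. The rest were an intronic region of Angpt4 (69.3 and 55.9) and one at -9700 bp from Thbs2 (25.0 and 31.9). The sites at -2184 bp from Ece1, at -1091 bp from Thbs1 and in the Angpt4 intron thus ranked above all 3 forskolin-only regions of the members in both lists. So did another Ece1 region, at -22559 bp in an intron (67.2 and 55.9).

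The genes most like each member were sought by the city-block distance between their counts of regions over the 15 possible call patterns. Genes that share a region with the member were left out. Genes that share regions with each other were not, so those named for one member need not be separate loci. For Vegfa these were Mettl21a and Eno1, each at a distance of 2 with 7 regions, then Lrrc38 at 3. For Adm, 4 genes stood at the lowest distance of 2, among them Atg3, Ccdc80 and Slc35a5. For Angptl4, 12 genes stood at the lowest distance of 1, among them Cd27 and Tapbpl. For Vegfb, 11 genes stood at 2, among them Sp7, Slc12a4 and Btbd2. Ties were ordered by a forskolin percentile, so the genes named among them are no closer in call pattern than the other tied genes.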

How the data were processed

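The phospho-CREB libraries, 2 per treatment, were grouped by sample title; the labels call them biological replicates. The authors deposited 1 peak list per library, with a position and a score per peak, so peak calling was done separately for each library. Bowtie, HOMER and build mm9 are named in the submitters' processing notes, without versions. The thresholds, the filters and the scale of the score are not stated in these sources. An input library of another series was not used here. Peak width is constant within a list (301, 303, 311 and 303 bp).

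Depth is not stated. Low scores fell on multiples of 0.232, 0.224, 0.239 and 0.688 (vehicle 1, 2, forskolin 1, 2). This held for 95.4% to 100% of scores under 50, where 14.8% (forskolin 2) to 45.5% (vehicle 2) would by chance. If 1 such step is 1 tag, the forskolin-only regions of Edn1, Angptl4 and Vegfa held 63, 50 and 49 tags in forskolin replicate 1. In forskolin replicate 2 they held 13, 8 and 10 (exact Poisson 95% intervals 6.92 to 22.2, 3.45 to 15.8 and 4.80 to 18.4, counting error only). On the same assumption the median peak held 62.0 tags in forskolin replicate 1 and 21.1 in forskolin replicate 2. Scores were otherwise used as percentiles within a list.

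Genes were those of GENCODE M1 on NCBIM37, which is mm9, and all 28335 regions lay within its 21 chromosomes. Distances were taken between the centre of a region and the closest annotated transcript start. Motifs were searched in 201 bp windows. No test was run across regions. Merging was run on simulated lists, where 5000 of 5000 regions fell into their class. The simulated peaks of a site always overlapped and separate sites never touched, so this checks the code only. In member regions the peak centres lay up to 403 bp apart (the Hnrnpm region of the Angptl4 window), a case that was not simulated. The members, the pathway lists and the rules were chosen with earlier results of these data known. Named were all members, pathway genes with a forskolin-only region within 10 kb or in the gene, nearest genes of member regions, and the 3 most similar genes of members with 5 or more regions; one gene picked by the rule is not reported here. Alternatives covered merging, window, TSS choice, list length and leaving out each library. Python 3.11.15, numpy 2.4.6, scipy 1.17.1 and matplotlib 3.10.9 were used.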

Additional observations from a re-analysis of the deposited data

How the results depend on the processing

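Joining peaks within 500 bp and using the outermost TSS alone left every count as it was (3 forskolin-only, 1 vehicle-only, 19 all-library regions, 3 genes with a forskolin-only region). With at least 50% of the shorter peak shared, a region in the Vegfb window became forskolin-only and the counts were 4, 1, 18 and 4. With windows of 10 and 50 kb, the all-library count was 4 and 12 and the vehicle-only count 0 and 0, since fewer regions are searched. With the top 50% of each list there were 1 forskolin-only, 0 vehicle-only and 12 all-library regions, and 1 gene with a forskolin-only region. With equal lists there were 0 forskolin-only and 3 vehicle-only regions, and 0 genes with a forskolin-only region; equal lists shorten the forskolin lists most. Leaving out each library in turn gave 4 to 10 forskolin-only regions (10 without forskolin replicate 2), 1 to 2 vehicle-only regions (2 without either vehicle library), 18 to 21 all-library regions and 3 to 4 genes with a forskolin-only region. By the definition, a forskolin-only region stays one when any library is left out. The 3 regions therefore could not be lost in these 4 runs, which say nothing of how stable they are. The mean percentile difference of all-library regions, 3.65, ran from -1.87 (without vehicle replicate 2) to 9.28 (without vehicle replicate 1), and was -6.44 with ranks among all-library regions only, an alternative chosen after seeing the data. With a replicate block, also chosen after seeing the data, the difference was 1.22 between the replicates numbered 1 and 6.07 between those numbered 2, with the same mean of 3.65; nothing in the labels says that equal numbers share a culture or day. How far depth limits the weak calls was not tested, as the lists give no read totals.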
